A study of Mus musculus with 12 samples.

Results

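The inflammatory genes described here are 10 genes that cells switch on in the acute-phase response and downstream of the transcription factor NF-kB: Saa3, Lcn2, Ptx3, C3, Il6, Ccl2, Ccl7, Cxcl1, Cxcl5 and Nfkbia. They were found by gene name in a table of 54532 genes, and all 10 were present. The set was chosen from the response to the depletion of CCNF, because Saa3 and Lcn2 showed some of the largest rises after siCCNF in these same libraries, and the other genes were added as members of the same pathways. The comparison of siCCNF with siCONTROL is therefore given only as a description. The samples were C2C12 cells, a mouse line of myoblasts that can fuse into myotubes, transfected for 48 h with 30 nM siRNA and sequenced as poly(A)-selected RNA. The 4 groups were a control siRNA (siCONTROL), depletion of Keap1 alone (siKEAP1), depletion of Ccnf alone (siCCNF) and depletion of the pair (siKEAP1/siCCNF), with 3 libraries labelled as biological replicates in each. KEAP1 is the adaptor through which the ubiquitin ligase CUL3 marks the oxidative stress factor NRF2 for degradation, and CCNF (cyclin F) is an adaptor of a CUL1 ligase that acts on cell-cycle regulators. The study compared these groups to ask whether CCNF is needed for oxidative stress signaling in myoblasts. The sources used here do not say which Ccnf siRNA was sequenced, or whether the 30 nM of the double depletion counts each siRNA or their sum.

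In resting cells NF-kB dimers are held in the cytoplasm by IkB proteins. Signals from receptors for tumor necrosis factor, interleukin-1 or microbial products lead to the degradation of IkB, after which NF-kB enters the nucleus and drives genes for cytokines, chemokines and its own inhibitors. The acute-phase response is the release of plasma and secreted proteins during infection or injury. It is led in the liver by interleukin-6, STAT3 and C/EBP factors, and many other cell types, myoblasts among them, can make some of the same proteins.

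The sequences before the transcription start are shown because NF-kB and C/EBP factors act on acute-phase and chemokine genes through sites close to the start. Starts were taken from RefSeq (GRCm38.p6), in which 7 of the 10 genes were matched (all but Ccl2, Ccl7 and Cxcl5). The 250 bases before it were searched on both strands for the kappaB consensus, the C/EBP motif TTGCNNAA, the STAT motif TTCNNNGAA and the AP-1 motif TGANTCA. A kappaB match was present in 3 of the 7 windows (Il6, Cxcl1 and Nfkbia) and in 3.9% of the 32851 windows of the same length in the table. A C/EBP match was present in 5 of the 7 (Saa3, Lcn2, C3, Il6 and Ptx3) and in 9.56% of all windows. The RefSeq starts do not all match the gene coordinates given below. The Lcn2 window (chr2:32387740-32387989) lies inside the gene by those coordinates (chr2:32384633-32388252, minus strand). The windows of Saa3 and Cxcl1 overlap their genes in part. The Lcn2 match is thus before the RefSeq start only. The AP-1 motif was found before Il6 alone among these 7, and in 6.75% of all windows, and the STAT motif before none of them and in 7.02% of all windows. The windows of 5 genes are printed 5′ to 3′ on the strand of the gene, ending at the base before the start, with kappaB and C/EBP matches in capitals. Saa3 (chr7:46715677-46715926, minus strand) and Ptx3 (chr3:66219637-66219886, plus strand) stand for the acute-phase genes with a C/EBP match, Il6 (chr5:30012864-30013113, plus strand) has both motifs, and Cxcl1 (chr5:90890995-90891244, plus strand) and Nfkbia (chr12:55492648-55492897, minus strand) have a kappaB match.
Saa3: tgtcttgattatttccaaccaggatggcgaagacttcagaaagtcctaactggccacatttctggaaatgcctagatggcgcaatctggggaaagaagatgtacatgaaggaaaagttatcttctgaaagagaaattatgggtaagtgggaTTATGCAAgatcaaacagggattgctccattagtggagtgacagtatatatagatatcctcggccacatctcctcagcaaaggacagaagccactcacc
Ptx3: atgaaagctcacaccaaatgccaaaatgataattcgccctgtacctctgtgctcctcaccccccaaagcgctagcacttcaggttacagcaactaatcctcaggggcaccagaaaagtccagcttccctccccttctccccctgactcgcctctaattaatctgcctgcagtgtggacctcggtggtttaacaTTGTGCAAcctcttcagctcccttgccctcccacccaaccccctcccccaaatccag
Il6: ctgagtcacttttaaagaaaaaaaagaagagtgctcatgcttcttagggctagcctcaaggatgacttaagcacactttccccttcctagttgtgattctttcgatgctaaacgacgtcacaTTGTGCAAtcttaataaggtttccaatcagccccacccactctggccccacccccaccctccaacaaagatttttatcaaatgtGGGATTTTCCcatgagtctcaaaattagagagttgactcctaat
Cxcl1: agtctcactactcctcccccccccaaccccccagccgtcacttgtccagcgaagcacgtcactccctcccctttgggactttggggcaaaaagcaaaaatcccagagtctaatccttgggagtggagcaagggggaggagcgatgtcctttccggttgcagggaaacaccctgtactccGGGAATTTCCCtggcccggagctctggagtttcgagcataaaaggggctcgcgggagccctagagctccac
Nfkbia: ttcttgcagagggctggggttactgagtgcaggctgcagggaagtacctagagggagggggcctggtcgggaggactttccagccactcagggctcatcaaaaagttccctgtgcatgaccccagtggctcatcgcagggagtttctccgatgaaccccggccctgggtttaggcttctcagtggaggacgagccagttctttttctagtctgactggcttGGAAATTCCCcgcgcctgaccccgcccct
The C/EBP match of Saa3 lay 99 to 92 bases before the start, that of Ptx3 57 to 50 bases and that of Il6 128 to 121 bases before it. The kappaB match of Il6 lay 44 to 35 bases before the start and that of Nfkbia 29 to 20 bases before it. Cxcl1 held 2 overlapping kappaB matches, 1 on each strand, between 71 and 61 bases before the start. A match describes the letters only, and binding was not measured.

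**Figure D1:**
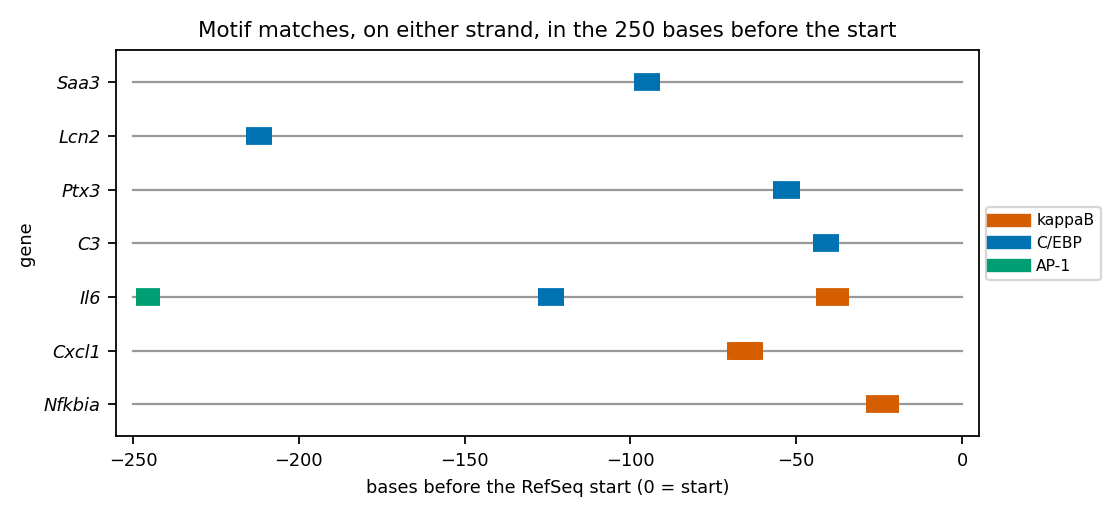
Positions of motif matches in the 250 bases before the RefSeq start of the 7 inflammatory genes with a start (x axis, bases relative to the start; 1 line per gene). Coloured blocks mark kappaB, C/EBP and AP-1 matches on either strand: Saa3, Lcn2, Ptx3 and C3 held a C/EBP match only, Cxcl1 and Nfkbia kappaB matches only, and Il6 all 3 motifs.

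Reads assigned to genes ranged from 18464209 to 37743198 per library, and 15122 genes passed the filter on low counts. All 10 inflammatory genes passed it, and each would have passed on any of the 4 groups alone. Values per library are given as CPM, counts scaled to library size after normalization by the TMM method, which corrects for differences in RNA composition. The targeted genes followed the labels: Keap1 was at 87.8 ± 3.05 CPM (SD, n = 3) in siCONTROL, 12.6 ± 0.279 in siKEAP1, 85.1 ± 4.35 in siCCNF and 24.1 ± 2.56 in siKEAP1/siCCNF. Ccnf was at 81.1 ± 3.99, 59.4 ± 4.83, 20.5 ± 0.778 and 24.5 ± 1.01 CPM in the same order, so both depletions were partial, and in siKEAP1/siCCNF cells Keap1 was higher than after siKEAP1 alone (log2 0.93 ± 0.0836, adjusted p = 1.07e-06). Ccnf also fell after siKEAP1 alone (log2 -0.45 ± 0.0728, adjusted p = 2.58e-04). In siCONTROL replicate 1 and siKEAP1/siCCNF replicate 3, the deviation from the group mean went with gene length (r = -0.305 and -0.276 across genes), against -0.0944 to 0.206 in the other 10 libraries.

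The labelled cell type was checked with markers. All 6 myoblast markers (Myod1, Myf5, Des, Cdh15, Pax7 and Itga7) were detected, with summed levels of 1396.4 to 1615.3 CPM in siCONTROL, 858 to 887 in siKEAP1, 634 to 645 in siCCNF and 615 to 704 in siKEAP1/siCCNF libraries. The summed level of 6 myotube markers was 52.2 to 122 CPM in siCONTROL and at most 21.2 in any other library. Of 8 macrophage markers, Ptprc, Adgre1 and Itgam were at 3 counts or fewer in every library. The summed level of all 8 was 13.8 to 17.3 CPM in siCONTROL, 29.8 to 35.3 in siKEAP1, 20.6 to 24.6 in siCCNF and 22.3 to 26.9 in siKEAP1/siCCNF, most of it from Cd14, Cd68 and Lyz2. The summed level of 4 fibroblast markers, most of it Pdgfra, was 45.5 to 70.7 CPM in siCONTROL, 42.9 to 45.5 in siKEAP1, 165 to 170.0 in siCCNF and 123 to 150.0 in siKEAP1/siCCNF, and Thy1 was at 3 counts or fewer in every library. Neutrophil markers summed to at most 8.73 CPM, endothelial markers to at most 2.04 and adipocyte markers to at most 3.4. The macrophage sums were above siCONTROL in all 3 depleted groups, the fibroblast sums in the 2 groups with siCCNF and not in siKEAP1, and the neutrophil sums did not overlap siCONTROL in siKEAP1 alone. Endothelial sums were 0.448 to 0.722 CPM in siCONTROL, 1.45 to 2.04 in siKEAP1 and 0.264 to 0.397 in siKEAP1/siCCNF. Adipocyte sums were 0.0448 to 0.144 CPM in siCONTROL, 2.24 to 3.4 in siKEAP1 and 0.198 to 0.395 in siKEAP1/siCCNF. In siCCNF these low sums overlapped siCONTROL. The part of these differences in the results for the inflammatory genes was not tested. In bulk RNA, more cells of a type and more RNA per cell cannot be told apart.

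Levels are compared between genes by FPKM, which is per gene length. Cxcl5, a chemokine for neutrophils, was the most abundant of the 10 in every group, with 133 ± 6.92 FPKM (SD, n = 3) in siCONTROL and 587 ± 27.4 in siKEAP1/siCCNF. In siCONTROL it was followed by Nfkbia (46.8 ± 3.56), Ccl7 (39.1 ± 2.65), Cxcl1 (38.9 ± 1.92), Ccl2 (21.4 ± 1.9), Ptx3 (5.64 ± 1.08), C3 (3.56 ± 1.35), Saa3 (0.844 ± 0.228), Il6 (0.425 ± 0.119) and Lcn2 (0.241 ± 0.0797). The libraries of Ccl7 and Cxcl1 overlapped, as did those of Il6 and Lcn2, and the other neighbours in this order did not overlap. In siCCNF the order was Cxcl5 (449 ± 46.4), Cxcl1 (163 ± 11.9), Ccl2 (71.7 ± 14.6), Saa3 (70.0 ± 5.45), Nfkbia (60.3 ± 0.87), Ccl7 (42.9 ± 8.98), C3 (42.6 ± 3.54), Ptx3 (24.4 ± 1.91), Lcn2 (4.4 ± 0.991) and Il6 (3.07 ± 0.897). Saa3 thus stood beside Ccl2, whose libraries it overlapped, whereas in siCONTROL it had been below C3. In siKEAP1, Ptx3 had the lowest mean (1.58 ± 0.372) and its libraries overlapped those of Il6 (1.67 ± 0.553). In siKEAP1/siCCNF, Nfkbia (66.0 ± 3.65), Ccl7 (63.2 ± 6.47) and Saa3 (62.2 ± 9.1) overlapped, and Lcn2 (6.89 ± 1.16) and Il6 (3.43 ± 0.535) were the least abundant. The highest mean was 552 times the lowest in siCONTROL and 146 to 171 times in the depleted groups.

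The response that chose these genes, siCCNF against siCONTROL, is described first and was not tested. For 9 of the 10 genes every siCCNF library was above every siCONTROL library, a pattern shown by 27.8% of the genes tested, and Ccl7 was the exception. The log2 fold change was 6.38 for Saa3, 4.18 for Lcn2, 3.59 for C3, 2.83 for Il6, 2.11 for Ptx3, 2.07 for Cxcl1, 1.76 for Cxcl5, 1.75 for Ccl2, 0.37 for Nfkbia and 0.13 for Ccl7. The libraries of Ccl7 overlapped (29.2 to 33.6 CPM in siCONTROL and 27.1 to 41.8 in siCCNF).

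Whether the same genes responded to the Ccnf siRNA in KEAP1-depleted cells was asked with siKEAP1/siCCNF against siKEAP1. The response that chose the genes used none of these libraries, but their results were known when the genes were chosen. Keap1 was at 12.6 CPM in siKEAP1 and at 24.1 in siKEAP1/siCCNF. This comparison, here and below, thus also holds a weaker depletion of Keap1, and the part of that was not tested. Saa3, Lcn2, Ptx3, C3, Il6, Cxcl1 and Cxcl5 rose, Ccl7 fell, and Ccl2 and Nfkbia did not pass the test. A gene was called at an adjusted p under 0.05 (edgeR's quasi-likelihood test, Benjamini-Hochberg over all genes). The 7 genes called higher stand against 24.1% of all genes, and the 1 called lower against 26.9%. All 7 rises were over 2-fold, which 5.32% of all genes reached, and the fall of Ccl7 was not (9.17% of all genes fell by over 2-fold). The median log2 fold change of the 10 was 1.31, beside 0.0013 over all genes. The 7 higher and 1 lower calls were also made without siCONTROL replicate 1 and siKEAP1/siCCNF replicate 3.

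The siKEAP1 libraries were compared with siCONTROL, which asks how these genes responded to loss of KEAP1 alone. This comparison and the next share the siCONTROL libraries with the response that chose the genes. Saa3 and Lcn2 were chosen for their rise over these siCONTROL libraries. Their p-values against siCONTROL, here and below, are thus not independent of that choice. All genes but Ptx3 rose, and Ptx3 fell. The 9 higher calls stand against 20.4% of all genes and the 1 lower call against 20.2%. By over 2-fold, 7 rose (7.59% of all genes) and 1 fell (3.88%). The median log2 fold change was 1.67, beside -0.012 over all genes.

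With both siRNAs, siKEAP1/siCCNF against siCONTROL, all 10 genes rose, where 20.6% of all genes rose and 23.6% fell. By over 2-fold, 8 rose, against 4.73% of all genes, and none fell, against 5.54%. The exceptions were Ccl7 and Nfkbia, and the median log2 fold change was 2.27, beside 0.014 over all genes.

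The last comparison asks whether siKEAP1 still acted on these genes once CCNF was depleted. The comparison of siKEAP1/siCCNF with siCCNF shares the siCCNF libraries with the response that chose the genes. Its p-values for Saa3 and Lcn2, here and below, are likewise not independent of that choice. Ccl7, Cxcl1 and Cxcl5 rose. These 3 stand against 3.0% of all genes called higher, and 0 against 2.19% called lower. None was past 2-fold in either direction (0.496% of all genes higher and 0.231% lower). The median log2 fold change was 0.24, beside 0.0032 over all genes. These calls depended on single libraries: without siCCNF replicate 1 none of the 10 was called, and without siCONTROL replicate 2, siKEAP1 replicate 3, siCCNF replicate 3, siKEAP1/siCCNF replicate 2 or siKEAP1/siCCNF replicate 3, 1 was called.

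**Figure D2:**
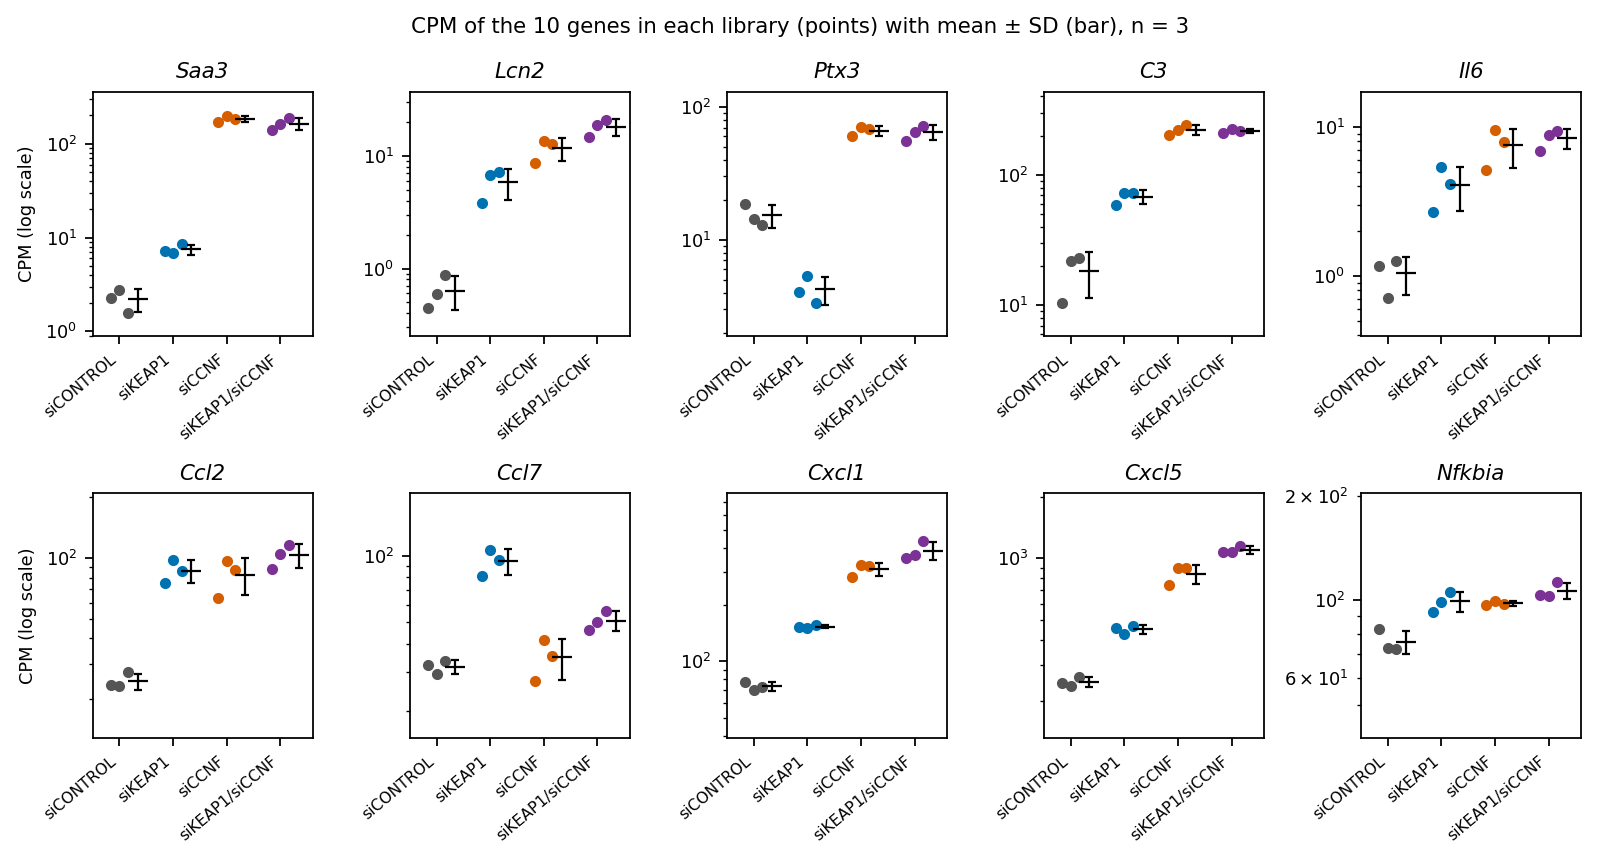
CPM (y axis, log scale, a range of its own for each gene) of the 10 inflammatory genes in each of the 12 libraries (points, x axis by siRNA group) with the group mean ± SD (black bar, n = 3). Saa3 and Ptx3 were high in both groups with siCCNF, Ptx3 was lowest in siKEAP1, and Ccl7 was highest in siKEAP1.

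Saa3 encodes serum amyloid A3, the form of this acute-phase apolipoprotein made outside the liver (ENSMUSG00000040026, chr7:46711998-46715700, minus strand). Its level was 2.29, 2.77 and 1.59 CPM in the 3 siCONTROL libraries, 7.2, 6.77 and 8.51 in siKEAP1, 169, 199 and 185 in siCCNF, and 140.0, 162 and 187 in siKEAP1/siCCNF. Every library with siCCNF was thus far above every library without it, and the 2 groups with siCCNF overlapped. In siKEAP1/siCCNF against siKEAP1 it was 21.8-fold higher (log2 fold change 4.44 ± 0.149 SE, adjusted p = 5.12e-10). siKEAP1 alone raised it 3.4-fold (log2 1.76 ± 0.186, adjusted p = 6.71e-06). Both siRNAs together raised it 74.0-fold over siCONTROL (log2 6.21 ± 0.173, adjusted p = 2.77e-10). Against siCCNF alone the difference was -0.18 ± 0.122 on the log2 scale (adjusted p = 0.503). Without siCONTROL replicate 1 and siKEAP1/siCCNF replicate 3 it was -0.29 and passed the test (adjusted p = 0.0315). The neighbouring paralogs Saa1, Saa2 and Saa4 reached at most 2, 6 and 2 counts in any library, and how reads that fit several paralogs were counted is not given in the sources used here.

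Lcn2 encodes lipocalin 2, which binds the iron carriers of bacteria (ENSMUSG00000026822, chr2:32384633-32388252, minus strand). It held 10 to 18 counts in the siCONTROL libraries, 0.448, 0.597 and 0.867 CPM. The siKEAP1 libraries were at 3.81, 6.72 and 7.15 CPM, the siCCNF libraries at 8.61, 13.6 and 12.8, and the siKEAP1/siCCNF libraries at 14.8, 19.0 and 20.7. The 4 groups followed each other without overlap. The rise after siKEAP1 was 9.25-fold (log2 3.21 ± 0.345, adjusted p = 7.76e-06), and siKEAP1/siCCNF libraries were 3.07-fold above siKEAP1 (log2 1.62 ± 0.233, adjusted p = 7.31e-05). Over siCONTROL the double depletion gave 28.4-fold (log2 4.83 ± 0.321, adjusted p = 1.24e-07). Against siCCNF the difference of 0.64 ± 0.219 did not pass the test (adjusted p = 0.121), although the libraries did not overlap, and it passed with no filter on low counts (adjusted p = 0.00475).

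Ptx3 encodes pentraxin 3, a secreted pattern-recognition protein that binds complement components (ENSMUSG00000027832, chr3:66219910-66225805, plus strand). It was at 18.5, 14.4 and 12.9 CPM in siCONTROL and at 4.04, 5.35 and 3.38 in siKEAP1, where it had 77 to 132 counts per library. The siCCNF libraries were at 60.0, 70.3 and 68.0 CPM and the siKEAP1/siCCNF libraries at 55.8, 64.7 and 72.3. Ptx3 was the only one of the 10 that was lowest in siKEAP1, and its levels in the 2 groups with siCCNF overlapped. The fall after siKEAP1 was 3.57-fold (log2 -1.84 ± 0.178, adjusted p = 3.03e-06). siKEAP1/siCCNF libraries were 15.0-fold above siKEAP1 (log2 3.91 ± 0.174, adjusted p = 3.51e-09) and 4.21-fold above siCONTROL (log2 2.07 ± 0.154, adjusted p = 3.15e-07). They differed from siCCNF by -0.04 ± 0.141 (adjusted p = 0.921).

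C3 encodes the central component of complement (ENSMUSG00000024164, chr17:57203970-57228136, minus strand). Its siCONTROL libraries were at 10.4, 21.9 and 23.1 CPM, the lowest being replicate 1, and had the widest spread relative to the mean of its groups. After siKEAP1 it was at 58.3, 72.5 and 72.5 CPM, after siCCNF at 203, 220.0 and 241, and after siKEAP1/siCCNF at 210.0, 223 and 216. The siKEAP1 group lay between siCONTROL and the 2 overlapping groups with siCCNF. It rose 3.69-fold after siKEAP1 (log2 1.88 ± 0.212, adjusted p = 1.20e-05), and siKEAP1/siCCNF was 3.19-fold above siKEAP1 (log2 1.67 ± 0.2, adjusted p = 1.44e-05). Without siCONTROL replicate 1 the siKEAP1 effect was 1.58 (adjusted p = 8.72e-08). Against siCONTROL the double depletion gave 11.8-fold (log2 3.56 ± 0.22, adjusted p = 7.55e-08), and against siCCNF the difference was -0.032 ± 0.192 (adjusted p = 0.956).

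Il6 encodes interleukin-6, the cytokine that drives the acute-phase response (ENSMUSG00000025746, chr5:30013114-30019981, plus strand), and was a low gene with 13 to 293 counts per library. Its level was 1.17, 0.705 and 1.25 CPM in siCONTROL, 2.69, 5.39 and 4.12 in siKEAP1, 5.16, 9.56 and 7.86 in siCCNF and 6.9, 8.87 and 9.36 in siKEAP1/siCCNF. All siCONTROL libraries were below all others, and the siKEAP1 and siCCNF libraries overlapped. It rose 3.87-fold after siKEAP1 (log2 1.95 ± 0.335, adjusted p = 4.12e-04). siKEAP1/siCCNF libraries were 2.05-fold above siKEAP1 (log2 1.03 ± 0.263, adjusted p = 0.0052) and 7.93-fold above siCONTROL (log2 2.99 ± 0.319, adjusted p = 6.99e-06). Against siCCNF the difference was 0.16 ± 0.248 (adjusted p = 0.805).

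The chemokine genes Ccl2 and Ccl7, which attract monocytes, lie next to each other on chromosome 11 with 8259 bases between them, and parted in the siCCNF groups. Ccl2 (ENSMUSG00000035385, chr11:82035571-82037453, plus strand) was at 23.4, 23.1 and 27.1 CPM in siCONTROL, 74.8, 97.9 and 86.2 in siKEAP1, 63.4, 96.5 and 87.1 in siCCNF and 88.5, 105 and 116 in siKEAP1/siCCNF. The 3 depleted groups overlapped each other, and all lay above siCONTROL. Its rise was 3.52-fold after siKEAP1 (log2 1.81 ± 0.158, adjusted p = 1.19e-06) and 4.21-fold after both siRNAs (log2 2.07 ± 0.158, adjusted p = 4.05e-07). siKEAP1/siCCNF differed from siKEAP1 by 0.26 ± 0.148 (adjusted p = 0.166) and from siCCNF by 0.33 ± 0.148 (adjusted p = 0.261). The former passed with no filter on low counts (0.27, adjusted p = 0.0391).

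Ccl7 (ENSMUSG00000035373, chr11:82045712-82047525, plus strand) was at 32.0, 29.2 and 33.6 CPM in siCONTROL, 80.6, 106 and 95.9 in siKEAP1, 27.1, 41.8 and 35.3 in siCCNF and 46.3, 50.1 and 56.4 in siKEAP1/siCCNF. The siKEAP1 libraries were the highest, the siKEAP1/siCCNF libraries came next, and siCCNF overlapped siCONTROL. It rose 2.98-fold after siKEAP1 (log2 1.57 ± 0.145, adjusted p = 2.03e-06). From siKEAP1 to siKEAP1/siCCNF it fell 1.85-fold (log2 -0.89 ± 0.141, adjusted p = 1.68e-04), to a level 1.61-fold above siCONTROL (log2 0.69 ± 0.144, adjusted p = 0.00168). The difference from siCCNF was 0.56 ± 0.142 (adjusted p = 0.0396). Ccl2 and Ccl7 are related in sequence, so reads that fit both may have been assigned to either, and the gene Gm17268, which overlaps Ccl2 on the opposite strand, had 0 counts in all libraries.

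Cxcl1 and Cxcl5, chemokines for neutrophils from a cluster on chromosome 5, had nearly the same pattern. Cxcl1 (ENSMUSG00000029380, chr5:90891241-90893115, plus strand) was at 77.5, 70.3 and 72.7 CPM in siCONTROL, 153, 150.0 and 156 in siKEAP1, 282, 324 and 322 in siCCNF and 356, 369 and 434 in siKEAP1/siCCNF. The groups did not overlap and followed each other in that order. It rose 2.08-fold after siKEAP1 (log2 1.06 ± 0.0836, adjusted p = 4.97e-07), and siKEAP1/siCCNF was 2.53-fold above siKEAP1 (log2 1.34 ± 0.0829, adjusted p = 4.03e-08). The double depletion gave 5.26-fold over siCONTROL (log2 2.39 ± 0.0863, adjusted p = 2.38e-09) and 1.25-fold over siCCNF (log2 0.32 ± 0.0813, adjusted p = 0.0376).

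Cxcl5 (ENSMUSG00000029371, chr5:90759360-90761624, plus strand) was at 246, 238 and 264 CPM in siCONTROL, 458, 425 and 467 in siKEAP1, 739, 896 and 895 in siCCNF and 1073.3, 1073.3 and 1156.2 in siKEAP1/siCCNF. Its groups had the same order as those of Cxcl1, without overlap. The rise after siKEAP1 was 1.8-fold (log2 0.85 ± 0.0813, adjusted p = 2.70e-06), and siKEAP1/siCCNF was 2.45-fold above siKEAP1 (log2 1.29 ± 0.0817, adjusted p = 4.64e-08). The double depletion gave 4.41-fold over siCONTROL (log2 2.14 ± 0.084, adjusted p = 3.30e-09) and 1.31-fold over siCCNF (log2 0.38 ± 0.0804, adjusted p = 0.0151). Across the 12 libraries the log2 CPM of Cxcl1 and Cxcl5 had a Pearson r of 0.996, the highest of the pairs among the 10 genes, over libraries that share their group. The related genes Cxcl2 and Cxcl3 in the same cluster reached at most 7 and 3 counts.

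Nfkbia encodes IkB-alpha, the inhibitor that NF-kB itself induces (ENSMUSG00000021025, chr12:55489410-55492647, minus strand). It was at 82.6, 73.1 and 72.3 CPM in siCONTROL, 92.8, 99.2 and 106 in siKEAP1, 96.8, 99.8 and 97.4 in siCCNF and 104, 103 and 113 in siKEAP1/siCCNF. All depleted libraries lay above all siCONTROL libraries, with group means less than 2-fold apart. It rose 1.31-fold after siKEAP1 (log2 0.39 ± 0.0727, adjusted p = 8.09e-04) and 1.41-fold after both siRNAs (log2 0.49 ± 0.0726, adjusted p = 1.13e-04). siKEAP1/siCCNF differed from siKEAP1 by 0.1 ± 0.072 (adjusted p = 0.253) and from siCCNF by 0.12 ± 0.0718 (adjusted p = 0.402).

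**Figure D3:**
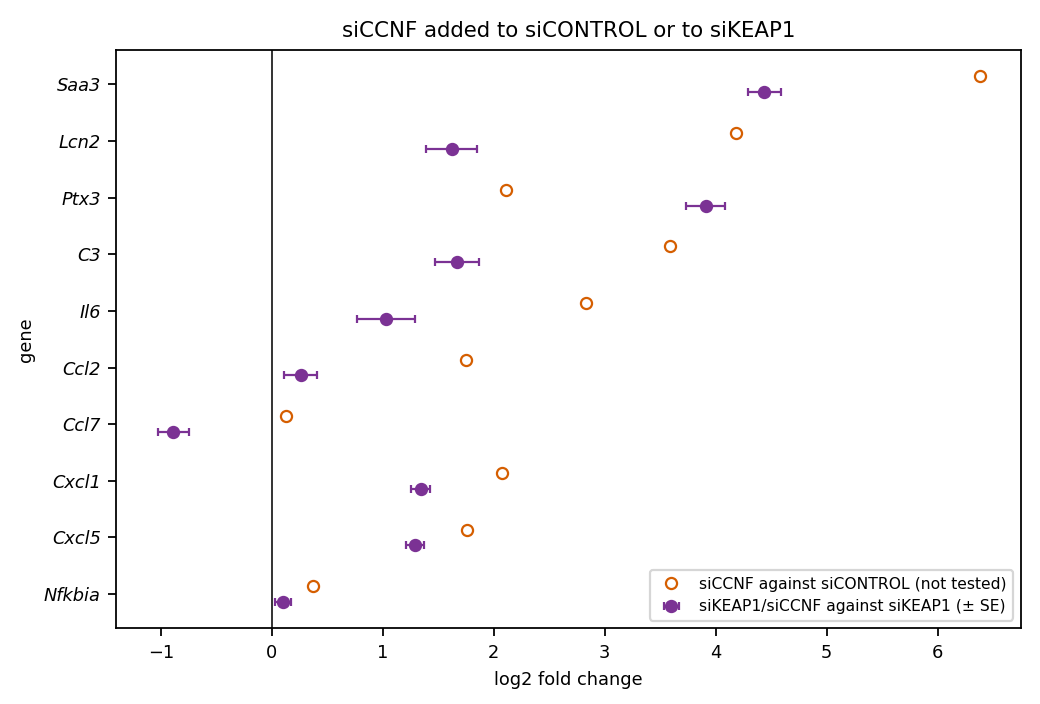
Log2 fold change (x axis) of each inflammatory gene (y axis) when siCCNF was added to siCONTROL (open points, not tested, the response that chose the genes) or to siKEAP1 (filled points ± SE). In KEAP1-depleted cells the values ran from -0.89 for Ccl7 to 4.44 for Saa3, and Ptx3 was the one gene with a higher value than in siCONTROL cells.

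The effects of siCCNF in the 2 backgrounds came from separate libraries and are set side by side without a test, since the first of them chose the genes. The difference (the effect in KEAP1-depleted cells minus that in control cells, on the log2 scale) was -2.57 for Lcn2, -1.94 for Saa3, -1.91 for C3, -1.79 for Il6, -1.49 for Ccl2, -1.02 for Ccl7, -0.74 for Cxcl1, -0.47 for Cxcl5 and -0.26 for Nfkbia. It was 1.8 for Ptx3. The same numbers describe the effect of siKEAP1 with siCCNF minus that without it. Their order depends on the scale for genes that were low in siCONTROL. On log2(FPKM + 1), which compresses low genes, the difference was -0.81 for Lcn2, -1.25 for Saa3 and -0.75 for Il6. Keap1 was at 24.1 CPM in siKEAP1/siCCNF and at 12.6 in siKEAP1. Ccnf itself changed by log2 -1.28 from siKEAP1 to siKEAP1/siCCNF and by -1.99 from siCONTROL to siCCNF. Unequal depletions of both targeted genes are thus compared. The part of this in the differences was not tested.

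**Figure D4:**
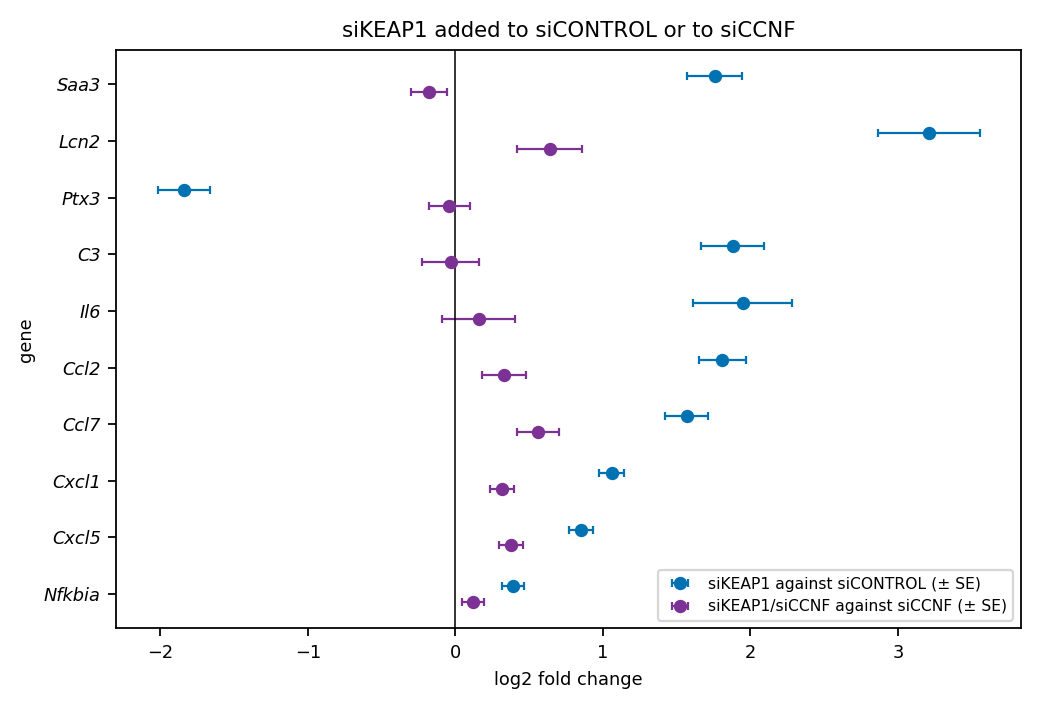
Log2 fold change ± SE (x axis) of each inflammatory gene (y axis) when siKEAP1 was added to siCONTROL or to siCCNF. The values against siCONTROL ran from -1.84 for Ptx3 to 3.21 for Lcn2, and those against siCCNF from -0.18 for Saa3 to 0.64 for Lcn2.

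The other genes of the pathway were followed in 10 lists with 136 genes, of which 107 passed the filter on low counts. When siCCNF was added to siKEAP1, 33 were called higher and 24 lower, or 30.8% and 22.4% of those tested, beside 24.1% and 26.9% of all genes. In siKEAP1 against siCONTROL, 52 were higher and 10 lower (48.6% and 9.35%, beside 20.4% and 20.2% of all genes), and in siKEAP1/siCCNF against siCONTROL 56 and 9 (52.3% and 8.41%, beside 20.6% and 23.6%). Against siCCNF, 3 were higher (2.8%, beside 3.0% of all genes) and 0 lower (beside 2.19%). The count of each list is to be read against these shares of all genes. Some of the genes tested, such as Hp, Ccl3, Cxcl11, Il11 and Mmp13, averaged less than the filter limit of 0.422 CPM in at least 1 group and passed through the groups where they were higher, so the counts are a description.

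**Figure D5:**
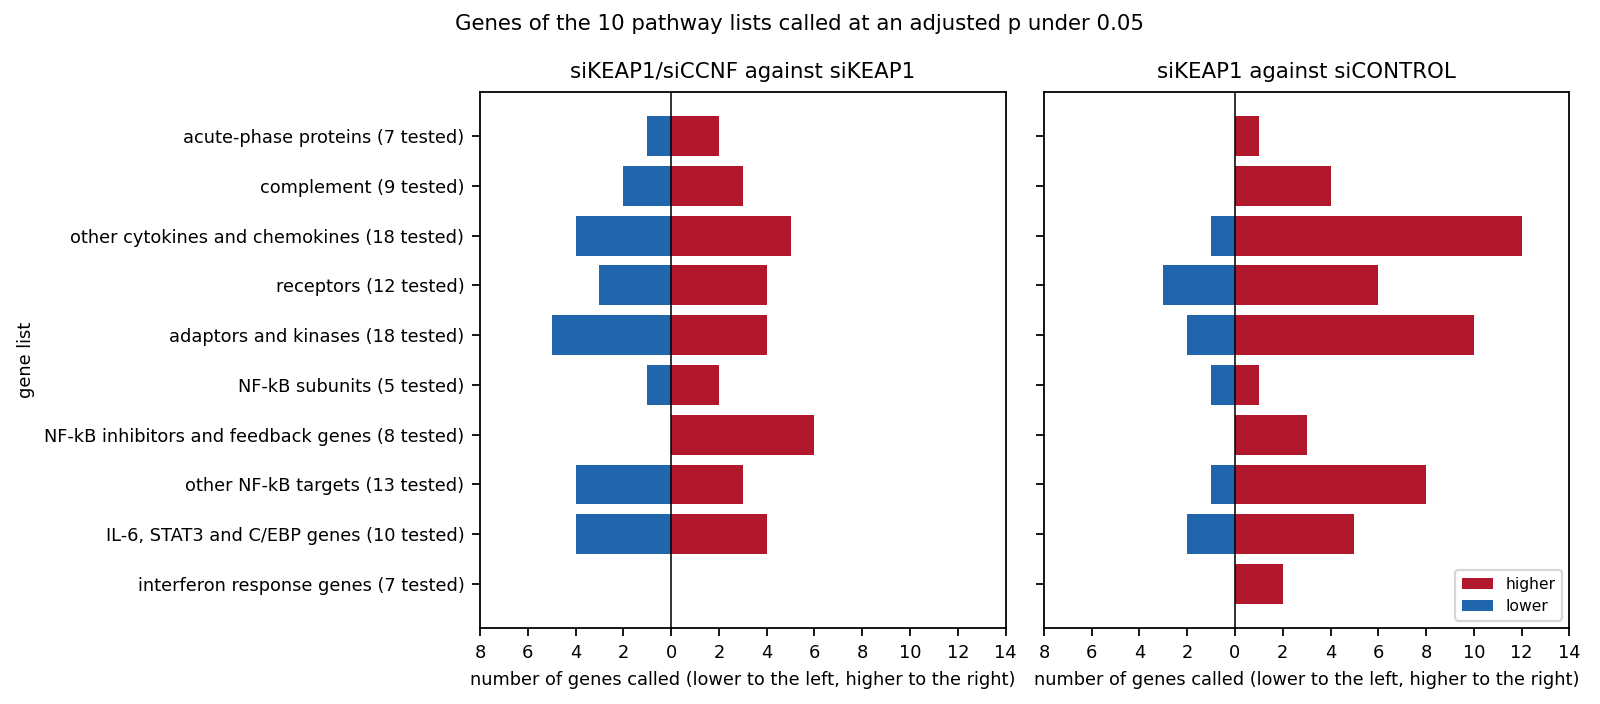
Number of genes (x axis) of each of the 10 pathway lists (y axis, with the number tested) called higher (to the right) or lower (to the left) at an adjusted p under 0.05, in siKEAP1/siCCNF against siKEAP1 (left panel) and siKEAP1 against siCONTROL (right panel). After siKEAP1 12 of 18 other cytokines and chemokines were higher and 1 lower, where 20.4% of all genes were higher and 20.2% lower. With siCCNF added 5 of the 18 were higher and 4 lower, where 24.1% of all genes were higher and 26.9% lower.

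Of the other acute-phase proteins, 7 of 16 were tested. Adding siCCNF to siKEAP1 left 2 higher and 1 lower, with a median log2 fold change of 0.046. Hp, the hemoglobin scavenger haptoglobin, was at 0.142 ± 0.114 CPM in siCONTROL, 0.298 ± 0.177 in siKEAP1, 3.23 ± 1.24 in siCCNF and 4.18 ± 0.915 in siKEAP1/siCCNF, and passed the filter only through the groups with siCCNF. Lbp, which binds bacterial lipopolysaccharide, fell (log2 -0.82 ± 0.278, adjusted p = 0.0254). After siKEAP1 the protease inhibitor gene Serpina3g was the 1 gene of the list called (log2 2.25 ± 0.264, adjusted p = 1.78e-05). Orm1, which encodes orosomucoid, was higher in siKEAP1/siCCNF than in siCCNF (log2 0.94 ± 0.23, adjusted p = 0.0318). The liver gene Crp had 0 counts in every library.

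Among complement genes 9 of 16 were tested, and 3 were higher and 2 lower in siKEAP1/siCCNF against siKEAP1 (median 0.94). Serping1, the C1 inhibitor, went from 7.73 ± 0.449 to 29.1 ± 2.8 CPM (log2 1.91 ± 0.143, adjusted p = 2.08e-07). The other 2 called higher, named after their values were seen, were the C1 protease genes C1s1 and C1ra, which rose by 1.42 ± 0.107 (adjusted p = 2.19e-07) and 1.33 ± 0.121 (adjusted p = 1.29e-06). The receptor gene C3ar1 moved the other way, from 4.6 ± 1.09 to 1.57 ± 0.0824 CPM (log2 -1.55 ± 0.234, adjusted p = 1.08e-04), after a rise of 1.95 ± 0.249 with siKEAP1 alone (adjusted p = 3.60e-05). After siKEAP1, 4 of the 9 were higher and 0 lower (median 0.29).

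Of 26 other cytokines and chemokines, 18 were tested. After siKEAP1, 12 were higher and 1 lower, with a median log2 fold change of 1.12. The 1 lower was Cxcl12, the ligand of CXCR4, which went from 175 to 57.9 CPM (log2 -1.6 ± 0.112, adjusted p = 1.65e-07) and stood at 307 CPM in siKEAP1/siCCNF (log2 2.41 ± 0.114 against siKEAP1, adjusted p = 5.04e-09). Ptx3 fell and rose in the same comparisons. Ccl11, the eosinophil chemokine eotaxin, moved as Ccl7 did in both comparisons. It rose by 1.7 ± 0.336 after siKEAP1 (adjusted p = 0.00121) and fell by 2.27 ± 0.343 from there to siKEAP1/siCCNF (adjusted p = 1.10e-04). Ccl3 averaged 0.0439 CPM in siKEAP1 and 1.05 in siKEAP1/siCCNF, and Cxcl11 averaged 0.0161 CPM in siCONTROL and 0.577 in siKEAP1, too near 0 for a fold to be given. Il11, a cytokine of the interleukin-6 family, averaged 0.971 CPM in siCONTROL, 0.516 in siKEAP1, 0.38 in siCCNF and 0.285 in siKEAP1/siCCNF. Il1b, the gene of interleukin-1 beta, reached at most 2 counts in any library.

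Of the receptors, 12 of 14 were tested. In siKEAP1/siCCNF against siKEAP1, 4 were higher and 3 lower, and after siKEAP1 6 were higher and 3 lower. Tlr4, the receptor for lipopolysaccharide, rose by 1.04 ± 0.181 after siKEAP1 (adjusted p = 4.76e-04) and fell by 1.24 ± 0.181 when siCCNF was added (adjusted p = 8.19e-05). Tlr2, which senses bacterial lipopeptides, did the reverse, with -0.53 ± 0.0711 (adjusted p = 5.77e-05) and 0.79 ± 0.0707 (adjusted p = 1.03e-06). Il6ra, the receptor for interleukin-6, rose after siKEAP1 (log2 1.07 ± 0.113, adjusted p = 6.75e-06) and was highest among the receptors in the rise from siCONTROL to siKEAP1/siCCNF (log2 1.69 ± 0.112, adjusted p = 1.23e-07). Il1r1, the interleukin-1 receptor, fell by 0.9 ± 0.107 after siKEAP1 (adjusted p = 2.07e-05). Tnfrsf1a, a receptor for tumor necrosis factor, fell by 0.24 ± 0.0636 from siCONTROL to siKEAP1/siCCNF (adjusted p = 0.00756).

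All 18 adaptor and kinase genes were tested, and 10 were higher and 2 lower after siKEAP1. Ikbkg, which encodes the NEMO subunit of the IkB kinase, went from 53.0 to 141 CPM (log2 1.41 ± 0.075, adjusted p = 1.44e-08). It fell by 1.19 ± 0.0741 when siCCNF was added (adjusted p = 4.26e-08) and was above siCCNF alone by 0.47 ± 0.0741 (adjusted p = 0.00282). Traf6 had the largest rise of the list from siKEAP1 to siKEAP1/siCCNF (log2 0.86 ± 0.126, adjusted p = 8.42e-05), where 4 were higher and 5 lower. Irak2, a kinase of interleukin-1 and Toll-like receptor signaling, was 1.45 ± 0.0777 above siCONTROL with both siRNAs (adjusted p = 2.51e-08). Tab1 and Tab2 encode partners of the kinase TAK1. Tab1 fell by 0.51 ± 0.0846 after siKEAP1 (adjusted p = 3.35e-04), and Tab2 fell by 0.37 ± 0.0911 from siCONTROL to siKEAP1/siCCNF (adjusted p = 0.00508).

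All 5 NF-kB subunit genes were tested. In siKEAP1/siCCNF against siKEAP1, Relb (0.39 ± 0.106, adjusted p = 0.00818) and Nfkb2 (0.24 ± 0.0659, adjusted p = 0.0091) rose, Rela fell (-0.25 ± 0.0674, adjusted p = 0.00671), and Rel (0.14 ± 0.151) and Nfkb1 (0.14 ± 0.0646) did not pass the test. After siKEAP1, Rela rose by 0.26 ± 0.0676 (adjusted p = 0.00679) and Nfkb2 fell by 0.19 ± 0.0661 (adjusted p = 0.0335). With both siRNAs against siCONTROL, Rel rose by 0.46 ± 0.154 (adjusted p = 0.0283) and Relb by 0.39 ± 0.106 (adjusted p = 0.00859).

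The inhibitors and feedback genes of NF-kB other than Nfkbia were called higher in the largest share of any list when siCCNF was added to siKEAP1. Of 8 tested, 6 were higher and 0 lower in siKEAP1/siCCNF against siKEAP1 (median 0.65), where 24.1% of all genes were higher and 26.9% lower. After siKEAP1, 3 were higher and 0 lower (median 0.099), where 20.4% and 20.2% of all genes were. Tnfaip3, which encodes the ubiquitin-editing enzyme A20, rose by 1.09 ± 0.126 (adjusted p = 1.11e-05) from siKEAP1 to siKEAP1/siCCNF and by 0.51 ± 0.134 (adjusted p = 0.00844) after siKEAP1. Of the others, named here after their values were seen, Bcl3 (0.88 ± 0.0773, adjusted p = 9.19e-07), Nfkbiz (0.87 ± 0.0997, adjusted p = 9.92e-06) and Nfkbie (0.87 ± 0.115, adjusted p = 3.44e-05) rose with siCCNF in KEAP1-depleted cells, and none of these 3 was called after siKEAP1 alone. Tnip1 (0.21 ± 0.0697, adjusted p = 0.0237) and Zc3h12a (0.43 ± 0.0775, adjusted p = 4.42e-04) rose there as well. Both were also called higher after siKEAP1 alone (0.29, adjusted p = 0.00496, and 0.4, adjusted p = 0.00125).

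Of 13 other NF-kB targets tested, 8 were higher and 1 lower after siKEAP1, and 3 were higher and 4 lower when siCCNF was added. Birc3, an inhibitor of apoptosis, rose from 0.742 CPM in siCONTROL to 1.76 in siKEAP1 (log2 1.28 ± 0.349, adjusted p = 0.00986) and 4.67 in siKEAP1/siCCNF (log2 1.4 ± 0.277 against siKEAP1, adjusted p = 9.15e-04). Mmp13, a collagenase, averaged 0.0941 CPM in siCONTROL, under the filter limit, and 0.895 in siKEAP1. Gadd45b fell by 0.59 ± 0.102 after siKEAP1 (adjusted p = 4.68e-04). The adaptor gene Traf1 fell by 2.33 ± 0.358 from siKEAP1 to siKEAP1/siCCNF (adjusted p = 1.23e-04). Tnfaip2 was above siCCNF by 0.33 ± 0.0725 with both siRNAs (adjusted p = 0.0184).

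All 10 genes of the interleukin-6, STAT3 and C/EBP list were tested, with 5 higher and 2 lower after siKEAP1, and 4 higher and 4 lower when siCCNF was added. Cebpd, a C/EBP factor of the acute-phase response, fell by 0.45 ± 0.0984 after siKEAP1 (adjusted p = 0.00236) and rose by 1.58 ± 0.097 with siCCNF (adjusted p = 3.70e-08). The kinase gene Tyk2 did the reverse, with 0.86 ± 0.0687 (adjusted p = 5.69e-07) and -1.09 ± 0.0688 (adjusted p = 4.42e-08). Cebpg was lower by 1.0 ± 0.0741 in siKEAP1/siCCNF than in siCONTROL (adjusted p = 3.26e-07). Of 7 interferon response genes tested, 2 were higher after siKEAP1, with the larger rise in Rsad2 (log2 1.92 ± 0.519, adjusted p = 0.00953), and 0 were called when siCCNF was added.

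The genes whose log2 CPM followed Saa3 most closely over the 12 libraries were Tm7sf3 (Pearson r = 0.989), Stk40 (0.989), Atxn7l3 (0.988), Ficd (0.987) and Rnf44 (0.986). For Lcn2 they were Slpi (0.995), Tmem229b (0.99), Akap1 (0.984), Cck (0.979) and Sbno2 (0.979). Slpi, a secreted inhibitor of neutrophil proteases, averaged 7.45 CPM in siCONTROL, 41.7 in siKEAP1, 66.3 in siCCNF and 96.1 in siKEAP1/siCCNF. The 12 points share their groups, and these values are a description. Among the 10 genes, Ccl7 was the least like Saa3 (r = -0.102), and its r with Ptx3 was -0.598.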

How the data were processed

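Poly(A)-selected RNA of 12 C2C12 cultures, 3 per group, was sequenced by the authors, and a table of raw read counts per gene and of FPKM values (fragments scaled to gene length and library size) was deposited for all libraries. Per the labels, reads were aligned with HISAT2 and the genome build GRCm39 is named, whereas the gene coordinates in the deposited table were identical to the GRCm38 annotation GENCODE vM21 for 98.3% of the 54409 genes found in both, and coordinates are given here as GRCm38. How reads shared by paralogs, or the strand, were handled in counting is not given in the sources used here. The table also holds 15 columns of the authors' own comparisons (group means, fold changes and p-values), which were not used.

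Libraries held 18464209 to 37743198 counts. Genes were filtered with filterByExpr of edgeR 4.0.16 (minimum count 10, a limit of 0.422 CPM), which left 15122 genes, and scaled by TMM (factors 0.971 to 1.02). All 4 groups were fitted together with edgeR's quasi-likelihood test in R 4.3.3, p-values were adjusted by Benjamini-Hochberg over all genes tested, and a gene was called at an adjusted p under 0.05. Correlations used log2 CPM with a prior count of 2. The p-values measure the spread between libraries labelled as biological replicates. The siCCNF against siCONTROL response and the difference between backgrounds were not tested, since that response chose the genes. The 10 genes and the pathway lists were chosen with earlier results of these data known. From each list, the called genes with the largest rise and fall in each comparison and all NF-kB subunits were named, and for Saa3 and Lcn2 the 5 most similar genes. Alternatives were DESeq2 1.42.0, limma 3.58.1 on log2(FPKM + 1), no TMM, other filters, a 2-fold threshold, a replicate block and leaving out each of the 12 libraries. The edgeR fit was run on counts simulated from its own model, for siKEAP1/siCCNF against siKEAP1 only. The other comparisons and methods were not simulated. Motif searches and figures were made with Python 3.11.15, pandas 2.3.3, numpy 2.4.6 and matplotlib 3.10.9.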

Additional observations from a re-analysis of the deposited data

How the results depend on the processing

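For the 10 genes, all 190 values of siKEAP1 against siCONTROL and all 190 of siKEAP1/siCCNF against siCONTROL kept their direction and their side of the threshold under the alternatives run, as did 189 of siKEAP1/siCCNF against siKEAP1. The exception was Ccl2 with no filter on low counts (0.27, adjusted p = 0.0391). With calls limited to over 2-fold, the genes called lower in siKEAP1/siCCNF against siKEAP1 went from 1 to 0, and those called higher against siCCNF from 3 to 0. Against siCCNF, 165 values kept direction and side, 19 lost the call, 3 gained it and 3 changed sign. Leaving out 1 library, the number called higher there ranged from 0 to 3 and the number called lower was 0. Without siCONTROL replicate 1 and siKEAP1/siCCNF replicate 3 together, a choice made after seeing the data, 1 was called lower (Saa3, -0.29). C3 ranged from -0.098 to 0.023 with 1 library left out, Il6 from -0.059 to 0.35 and Ptx3 from -0.14 to 0.051, none of them called. Of all genes, 785 were called against siCCNF, 1257 by DESeq2, 2186 without both those libraries and 363 to 1404 with 1 library left out. The cause was not tested. With log2(FPKM + 1), which compresses low genes, the siCCNF against siCONTROL values of Saa3, Lcn2 and Il6 were 5.27, 2.11 and 1.49, and the differences between backgrounds -1.25, -0.81 and -0.75. The tested values shrank too: in siKEAP1 against siCONTROL those of Saa3, Lcn2 and Il6 were 1.07, 1.36 and 0.89, and in siKEAP1/siCCNF against siCONTROL those of Lcn2 and Il6 were 2.66 and 1.63, all still called. Deviations of same-numbered libraries correlated by -0.268 to 0.204 (4 of 18 pairs over 0.1), and those of the other pairs by -0.276 to 0.39. The replicate numbers thus showed no clear pairing. Whether same-numbered cultures were handled together cannot be told from these values. With a replicate block the numbers of genes called higher and lower were 7 and 1, 9 and 1, 10 and 0, and 3 and 0, in the order of the report. In siKEAP1/siCCNF against siCCNF the block brought Lcn2 past the threshold (0.65, adjusted p = 0.00898) and Cxcl1 out of it (0.32, adjusted p = 0.0515). Depth limited Lcn2 and Il6 most, with 10 to 26 counts per siCONTROL library.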

Other observations

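Genes within 200 kb of the chemokine clusters and of Saa3 were looked at after the data were seen. Ereg, which encodes the growth factor epiregulin and lies 181507 bases from Cxcl1, averaged 23.8 CPM in siCONTROL, 83.6 in siKEAP1, 23.6 in siCCNF and 30.9 in siKEAP1/siCCNF. It rose after siKEAP1 (log2 1.82, adjusted p = 3.29e-07) and fell from siKEAP1 to siKEAP1/siCCNF (log2 -1.43, adjusted p = 1.64e-06), the directions of Ccl7. Cxcl1 rose in both comparisons. Ppbp, 6894 bases from Cxcl5, averaged 0.561 to 1.64 CPM and was not called in either comparison (adjusted p = 0.053 and 0.12). Mthfd2l, 38002 bases from Cxcl1, fell after siKEAP1 (log2 -0.33, adjusted p = 0.03) and from siKEAP1 to siKEAP1/siCCNF (log2 -0.46, adjusted p = 0.00436). Saal1, 1318 bases from Saa3, averaged 24.9, 25.5, 21.8 and 27.1 CPM in the order siCONTROL, siKEAP1, siCCNF and siKEAP1/siCCNF, and its difference between siKEAP1/siCCNF and siKEAP1 was 0.09 on the log2 scale (adjusted p = 0.326), while it was above siCCNF by 0.31 (adjusted p = 0.0252). Farther from Saa3, Hps5 and Gtf2h1 rose from siKEAP1 to siKEAP1/siCCNF (log2 0.39, adjusted p = 0.00179, and 0.42, adjusted p = 3.28e-04), Tsg101 fell (log2 -0.38, adjusted p = 0.00306), and Sergef and Ldha were not called (adjusted p = 0.738 and 0.0623). Ccl8, in the cluster of Ccl2 and Ccl7, rose after siKEAP1 (log2 0.76, adjusted p = 0.045) and differed by -0.17 from siKEAP1 to siKEAP1/siCCNF (adjusted p = 0.612).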
